A study of Mus musculus with 4 samples.

Results

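The 82 cytosolic ribosomal protein genes described here were taken from the 31557 gene symbols of a single-cell count table by their names: Rpl or Rps followed by a number and at most 1 letter, together with Rplp0, Rplp1, Rplp2 and Rpsa. Pseudogene symbols and the Rps6k kinases were left out. Of the 82 genes, 32 code for proteins of the small (40S) subunit and 50 for proteins of the large (60S) subunit. The cells were nestin-GFP cells sorted from the dentate gyrus of male nestin-GFP mice, a reporter strain in which the Nes promoter drives GFP. Nestin is a filament protein of neural stem cells, and the sorted cells also held oligodendrocytes and cells of blood vessels. In 4 mice a miR-132 antagomir, a cholesterol-modified oligonucleotide of locked nucleic acid meant to block that microRNA, had been infused into the cerebral ventricle (2 µl at 0.33 nmol/ml) at 2 months of age, and the cells were taken at 3 months. The 4 control mice had received a scrambled oligonucleotide of locked nucleic acid, and all 8 mice carried the reporter. Mature miR-132 was not measured.

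Ribosomal proteins are the protein part of the 40S and 60S subunits, most of them present as a single copy in a ribosome, and their genes are transcribed at a high level in most cells. The mRNAs of these proteins typically begin with a C followed by a run of pyrimidines, the terminal oligopyrimidine tract, through which mTORC1 signalling and Larp1 control their translation and stability. Neural stem cells that leave quiescence and become neuroblasts are known to raise their protein synthesis, while some members of the family have paralogs that are used in muscle, testis or stressed cells.

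An annotated start with such a tract is shown for 6 members whose levels are described below, so that a reader can see the sequence they share. Each window runs from 10 bases before to 20 bases from the RefSeq start (build GRCm38.p6), and capitals mark the uninterrupted run of C and T from the start base.
Rps6: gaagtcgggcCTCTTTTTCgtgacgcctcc
Rpl38: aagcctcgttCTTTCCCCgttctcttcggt
Rps27: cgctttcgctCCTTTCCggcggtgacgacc
Rpl15: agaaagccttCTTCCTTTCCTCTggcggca
Rpl35: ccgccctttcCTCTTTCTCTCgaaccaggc
Rpl28: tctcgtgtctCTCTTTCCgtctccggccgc
The windows lie at chr4:86857348-86857377 on the minus strand (Rps6), chr11:114668570-114668599 on the plus strand (Rpl38), chr3:90213629-90213658 on the minus strand (Rps27), chr14:18270967-18270996 on the minus strand (Rpl15), chr2:39005112-39005141 on the minus strand (Rpl35) and chr7:4792955-4792984 on the plus strand (Rpl28). Among the 60 members with an entry in the RefSeq promoter table, 13 (21.7%) had a C at the annotated start followed by at least 4 pyrimidines, against 2.6% of the other 17431 promoters. When the C could lie within 5 bases of the start, the shares were 46.7% and 21.5%. The motif CCGGAAG, searched on both strands of the 300-base promoters, was found for 41.7% of members and for 12.8% of the others, and TATAAA for 6 of the 60 members and 14.8% of the others. These matches describe letters around annotated starts, which can differ from the starts used in these cells.

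Wells with 500 to 6000 detected genes were kept, 716 of 768, with a median of 650777 counts per well and between 43996495 and 69191485 counts per mouse. Cells were grouped into 12 clusters without the ribosomal protein genes and named from markers, each with the suffix -like because no annotation came with the files. The classes used below were 302 oligodendrocyte-like cells (14 of 15 markers detected in at least 25% of cells), 203 cells with markers shared by radial glia and astrocytes, here RGL/astrocyte-like (15 of 16; "RGL or astrocyte-like" in the plots), 87 endothelial-like (10 of 10), 82 mural-like (9 of 11) and 25 neuroblast-like cells (11 of 11). One oligodendrocyte-like cluster was led by the stress and early response genes Egr1, Fos, Arc and Dnajb1, and 1 of the RGL/astrocyte-like clusters by metallothioneins. The summed oligodendrocyte markers held 10.1% of counts in oligodendrocyte-like cells and between 0.00219% and 0.0486% in the other 4 classes. The cluster with metallothioneins was shallow, with 881 genes detected in the median cell and 11.4% of counts from mitochondria. Wells carried a project label that ended in L5 or L6, here called a pool. Mice of pool L6 had 4.31% ± 0.486 mitochondrial counts and those of pool L5 1.31% ± 0.201 (SD, n = 4 each), and each pool held 2 mice of each treatment. A mouse counted as 1 replicate, and a class entered with the mice that had at least 3 of its cells. Neuroblast-like cells therefore came from 5 mice with 3 to 5 cells each, and endothelial-like cells of mouse 7 numbered 3.

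The 82 genes held 5430248 of 470318489 counts in the kept wells (1.15%), and the 226 rows of their pseudogenes held 0.00487%. Members on 19 chromosomes were counted, 14 of them on chromosome 7 and 4 on the X chromosome. The 5 members with the most counts, Rpl4, Rps3, Rplp0, Rpl8 and Rps14, took 18.57% of all member counts and the first 10 took 30.06%. No member therefore dominated the sum. Per kilobase of the principal transcript, the highest levels over all cells were those of Rps14 (579 ± 87.7 CPM per kilobase, SD, n = 8, where CPM are counts per 1000000 counts of a mouse), the stalk protein gene Rplp1 (484 ± 61.0), Rps27 (470 ± 69.0), Rpl8 (427 ± 74.9) and Rpl41 (414 ± 33.3), which codes for the shortest protein of the family. From Rplp1 on, neighbours in that order differed by less than their spread. Fau, whose product is cut into a ubiquitin-like protein and a small-subunit protein, lies outside the naming rule and was at 462 ± 51.6 CPM per kilobase.

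At the other end were Rpl6l, Rpl39l, Rpl10l and Rpl3l, each with under 500 counts in all kept wells together, and Rpl24. Rpl3l is the striated muscle paralog of Rpl3, and Rpl10l and Rpl39l are testis paralogs. Rpl3l had 419 counts in 10 cells, Rpl10l 43 counts in 5 cells and Rpl39l 9 counts in 1 cell, so the tissue-restricted paralogs were at or near 0 in most cells. The paralogs Rps27l, a gene induced by p53, and Rps4l, an intronless copy of Rps4x, were well above them with 76.6 ± 15.7 and 67.1 ± 33.3 CPM over all cells, where Rps4x itself was at 237 ± 38.2. Rpl22l1 and Rpl36al, paralogs outside the naming rule, were at 32.9 ± 12.9 and 43.6 ± 9.64 CPM. The 5 paralogs among the members together held 1.216% of member counts. Rps4l and Rps4x are near-identical, and the sources used here do not state how reads shared by copies were counted, so their split is uncertain.

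Rpl24 is a core 60S protein, yet it had 1.09 ± 0.706 CPM (SD, n = 8). Exons of Gm28037 cover 71.5% of its principal transcript in GENCODE M21. Other genes likewise cover over 50% of the transcript in Rps10 (91.6%), Rpl35 (68.3%), Rpl13a (59.3%) and Rpl23a (55.4%). Rps10 was not low, with means of 89.4 and 105 CPM over all cells in antagomir and scrambled mice. The part of this overlap in the counts of these genes was not tested. The members seen in the most cells were Rps29 in 92.7%, Rpl41 in 92.2% and Rps27 in 90.4% of the 716 cells.

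The share of counts in the family differed between cell classes far more than between mice. It was 3.42%, 3.08%, 3.06%, 3.52% and 2.83% in the neuroblast-like cells of the 5 mice with enough of them (mean 3.18% ± 0.283, SD, n = 5). Endothelial-like cells ranged from 1.46% to 2.498% with a mean of 1.96% ± 0.344 (n = 8), so the classes did not overlap at the clustering used. At a coarser clustering (Leiden resolution 0.5) the neuroblast-like class ranged from 1.37% to 3.24% (2.55% ± 0.685, n = 8) and overlapped the endothelial-like range. Mural-like cells had 1.13% ± 0.189, oligodendrocyte-like cells 1.01% ± 0.107 and RGL/astrocyte-like cells 0.977% ± 0.118 (n = 8 each), and these last 3 classes overlapped.

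**Figure D1:**
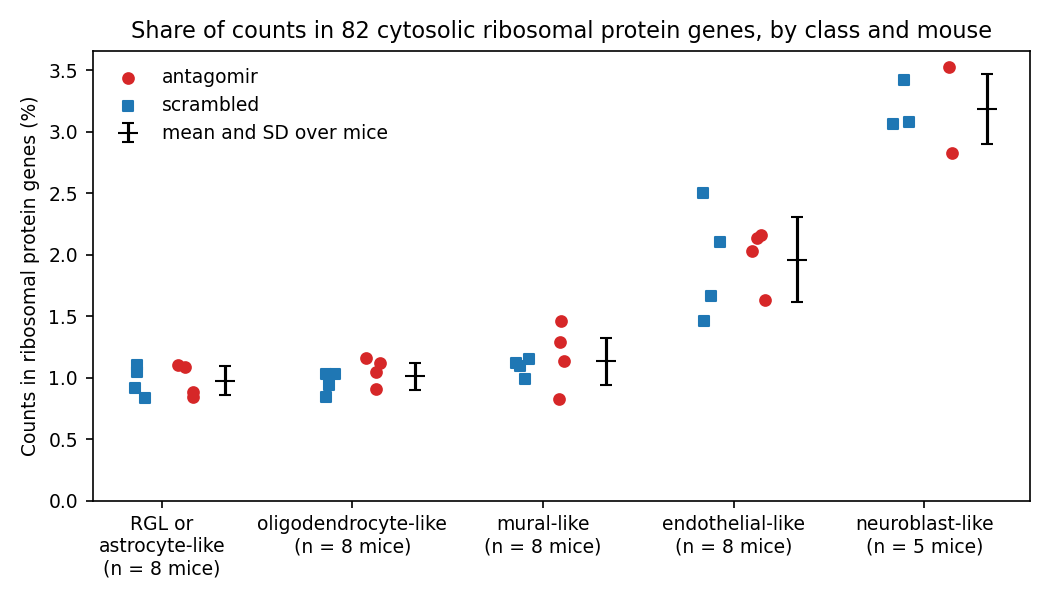
Share of each mouse's counts that fell in the 82 ribosomal protein genes (y axis, percent) in 5 cell classes (x axis), with 1 point per mouse, coloured by treatment, and the mean and SD over mice. Neuroblast-like cells lie between 2.83% and 3.52% and endothelial-like cells between 1.46% and 2.498%, above the 3 overlapping classes on the left, and the treatments are mixed within each class.

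Within single mice the order was the same. The neuroblast-like share was above the RGL/astrocyte-like share in 5 of 5 mice, by a median of 3.34-fold (2.95 to 3.71), and above the endothelial-like share in 5 of 5 mice, by 1.39 to 2.34-fold. The endothelial-like share exceeded that of RGL/astrocyte-like cells in 8 of 8 mice by 1.504 to 2.45-fold and that of oligodendrocyte-like cells in 8 of 8. Mural-like cells were above RGL/astrocyte-like cells in 7 of 8 mice. Oligodendrocyte-like and RGL/astrocyte-like cells could not be ordered, since the former were higher in 4 of 8 mice. These are shares of each library's counts. An equal mass of cDNA went into each library, so the amount of ribosomal protein mRNA per cell was not measured. The endothelial-like share was 1.72% ± 0.288 in pool L5 and 2.20% ± 0.207 in pool L6 (n = 4 each), so it moved with the pool as the mitochondrial share did, and the part of the pool was not tested.

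The class of RGL/astrocyte-like cells was not uniform. Its largest cluster (87 cells, led by F3, Lcat and Slc39a12) had 0.595% ± 0.101 of counts in the family (n = 8), the lowest of the clusters with 8 mice. A cluster of 35 cells had 2.16% ± 0.890 (n = 7 mice, 1.09% to 3.28%) and exceeded the largest cluster in 7 of 7 mice, by 1.55 to 5.90-fold. Counts of Nes were found in 97.1% of these 35 cells, against 37.9% in the largest cluster. Nes was also found in 96.3% of mural-like and 71.2% of oligodendrocyte-like cells. Ccnd2 and Hmgb2 were among the leading genes of the cluster of 35 cells. This cluster had 6 of 11 neuroblast and 15 of 16 RGL/astrocyte markers in at least 25% of cells, against 0 and 15 in the largest cluster. Aqp4 was found in 40.0% of its cells, against 96.6% in the largest cluster. In this Nes-rich cluster, 5 cells from 4 mice had counts of at least 2 cycling markers, and their median share was 2.88% (2.12% to 3.89%). The other 30 cells had a median of 1.48%, and their range of 0.484% to 6.78% contained that of the 5 cells. These 5 cells also had more detected genes, a median of 5249 against 3544.5. At a coarser clustering (Leiden resolution 0.5) the Nes-rich cells joined the neuroblast-like class, which then had 60 cells and a share of 2.55%, and the remaining 168 RGL/astrocyte-like cells had 0.667%. The cluster of few detected genes had 1.14% ± 0.176 (n = 5). These clusters were singled out after their values had been seen, and no test was made on them.

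**Figure D2:**
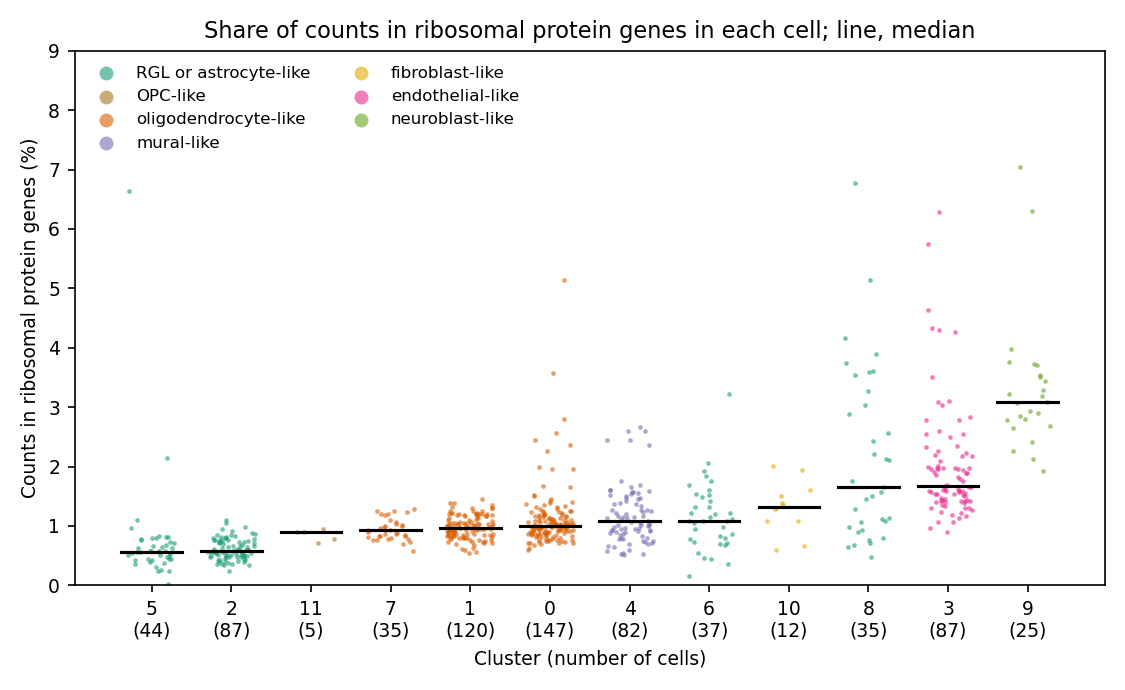
Share of counts in the 82 ribosomal protein genes (y axis, percent) in each of the 716 cells, by cluster (x axis, number of cells in brackets), coloured by class, with a line at the median. Medians rise from 0.565% in cluster 5 to 3.08% in the neuroblast-like cluster 9, and the Nes-rich cluster 8 spreads from 0.484% to 6.78%.

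How many members a cell showed followed a different order. After thinning every cell to 200000 counts, neuroblast-like cells had a median of 71 members detected, the Nes-rich cluster 70, oligodendrocyte-like cells 59, endothelial-like cells 54, RGL/astrocyte-like cells 42 and mural-like cells 40. Without thinning, the medians were 72, 72, 60, 53, 43 and 39.5. Oligodendrocyte-like cells thus showed more members than endothelial-like cells at a smaller share of counts. At least 90% of the thinned neuroblast-like cells had counts of 58 members, a number that was 12 in oligodendrocyte-like, 8 in endothelial-like and 0 in the other 2 classes. Thinning left out 2, 5, 9, 21 and 8 cells of the neuroblast-like, oligodendrocyte-like, endothelial-like, RGL/astrocyte-like and mural-like classes. The median number of all genes detected after thinning differed too, from 1789 in mural-like to 2896 in neuroblast-like cells.

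Of the 78 members with at least 500 counts, 70 had their highest mean CPM in neuroblast-like cells. Endothelial-like cells were highest for 7, among them the large-subunit gene Rpl38 and the small-subunit genes Rps27 and Rps29, which also led there by the median and without mouse 7. For 3 others the order turned on the measure. Rps4x had a mean of 621 CPM in endothelial-like and 533 CPM in neuroblast-like cells, but medians of 434 and 555 CPM, and its endothelial-like mean was 453 CPM without mouse 7 (1793 CPM in 3 cells). Rps25 was at 165 and 153 CPM, with 142 CPM in endothelial-like cells without mouse 7. Rps12 was at 149 and 145 CPM, with medians of 129 and 136 CPM. Without mouse 7, neuroblast-like cells were highest for 72 members and endothelial-like cells for 5. Mural-like cells were highest for Rps4l. The lowest mean fell in oligodendrocyte-like cells for 37 members, in RGL/astrocyte-like for 27, in mural-like for 13 and in endothelial-like for 1. The split between subunits differed by little, with the small subunit at 41.4% ± 1.32 of member counts in RGL/astrocyte-like, 41.1% ± 1.11 in oligodendrocyte-like, 44.1% ± 3.93 in endothelial-like, 41.5% ± 2.05 in neuroblast-like and 40.9% ± 3.75 in mural-like cells.

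**Figure D3:**
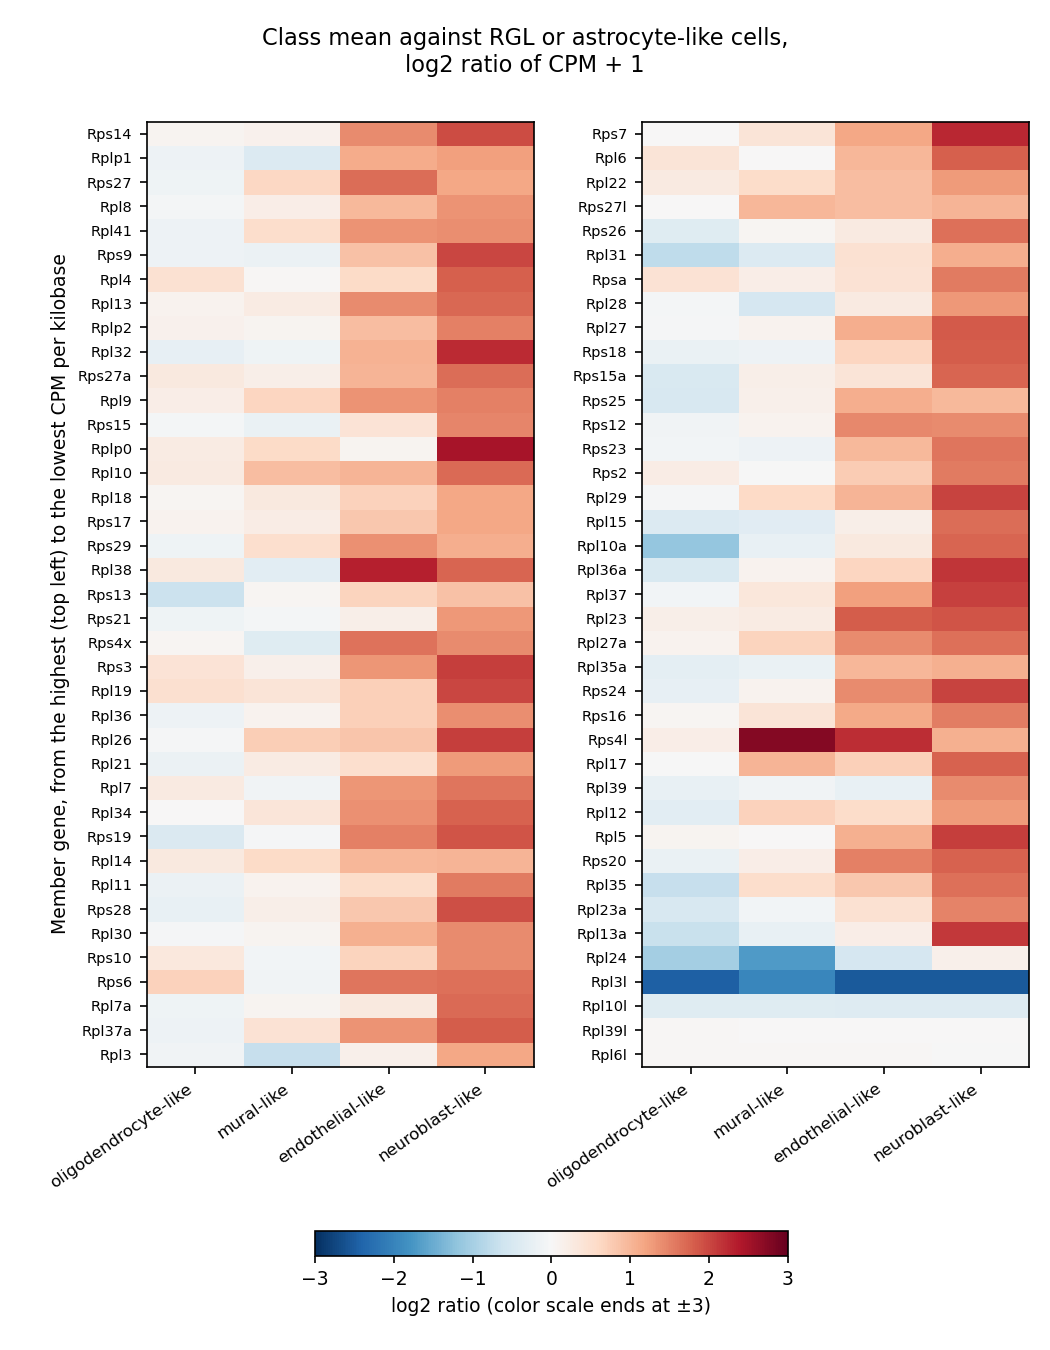
Log2 ratio of the class mean CPM + 1 to that of RGL/astrocyte-like cells (colour) for 78 of the 82 genes (rows, from the highest to the lowest CPM per kilobase) in 4 classes (columns). The neuroblast-like column is red for nearly all genes, Rpl38 stands out in endothelial-like and Rps4l in mural-like cells, and the 4 genes with under 500 counts are at the bottom right.

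Taking each member as a percentage of the family's own counts removes any scaling between classes, and on that scale most members kept their place. In oligodendrocyte-like cells 70 of 78 members were within 1.5-fold of their percentage in RGL/astrocyte-like cells, in mural-like cells 70, in neuroblast-like cells 67 and in endothelial-like cells 62. Rps6, the target of S6 kinase, was the 1 member with a higher percentage in oligodendrocyte-like cells in all 8 mice (1.73% ± 0.194 against 1.08% ± 0.333). Rpl35, Rpl41, Rps13 and Rps25 were lower there in all 8 mice. In endothelial-like cells, Rpl38 (1.46% ± 0.511 against 0.581% ± 0.118), Rps27 and Rpl27a were among those higher in 8 of 8 mice, and Rpl3, Rpl15, Rpl21, Rpl39 and Rps15 were lower. In mural-like cells Rps4l (1.94% ± 1.17 against 0.328% ± 0.200) and Rps27 were higher in 8 of 8 mice and Rpl3, Rpl15, Rpl24 and Rpl28 lower. Rpl24 was near the floor in both classes, with counts in 0.0% of thinned mural-like and 6.04% of thinned RGL/astrocyte-like cells. In neuroblast-like cells 4 of 78 members were higher in 5 of 5 mice, among them Rps9 (3.44% ± 0.402), Rpl26 and Rps24. The 3 members lower in 5 of 5 mice were Rps13, Rps25 and Rps29. Agreement of 5 mice arises by chance more often than agreement of 8, and these numbers were not compared with chance. Rps25 is known for its part in translation from internal ribosome entry sites. These members were listed by the agreement of their mice, as a description.

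Differences between classes were tested member by member with edgeR's quasi-likelihood test on counts summed per mouse and class, with the mouse as a block, TMM scaling and Benjamini-Hochberg adjustment over all genes. In oligodendrocyte-like against RGL/astrocyte-like cells, 5 of 78 members were called higher and 1 lower, where 13.3% of all 11007 genes tested were called higher and 13.7% lower. Rps6 ranged from 147 to 231 CPM (median 161) over the 8 mice in oligodendrocyte-like and from 35.4 to 161 (median 115) in RGL/astrocyte-like cells. It was higher in 8 of 8 mice although the groups overlapped, with a log2 difference of 0.99 (SE 0.25, adjusted p = 0.0132). After thinning, Rps6 was found in 89.9% of oligodendrocyte-like and 46.2% of RGL/astrocyte-like cells.

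The other members called higher were Rpsa, which also acts as a laminin receptor (0.72, adjusted p = 0.0384), Rpl4, which lines the exit tunnel (0.68, adjusted p = 0.0366), Rpl19 (0.68, adjusted p = 0.0210) and Rps3, which sits at the mRNA entry (0.66, adjusted p = 0.0120). Rpl10a, the protein of the L1 stalk, was the 1 member called lower (-0.97, SE 0.28, adjusted p = 0.0242). Its levels were 29.8 to 56.7 CPM (median 38.2) in oligodendrocyte-like and 53.4 to 136 CPM (median 89.3) in RGL/astrocyte-like cells. The groups overlapped only at their edges, and 1 of 8 mice was higher in oligodendrocyte-like cells. Rpl5 and Rpl11, which bind Mdm2 with the 5S RNA, had log2 differences of 0.35 and 0.08, neither called. Rps3 and Rps6 were called in each of 8 fits without 1 mouse, whereas the call was lost without 2 mice in turn for Rpl19, 6 for Rpl4 and Rpl10a, and 7 for Rpsa. The median member was at 0.16 beside 0.11 for all genes, and it changed sign to -0.07 (all genes -0.11) when libraries were scaled by size only, where 0 members were called higher and 2 lower (11.2% and 15.7% of all genes). Without the Nes-rich cluster 24 of 78 members were called higher and 0 lower, and the median member was at 0.69 (all genes 0.44). There 26.3% of all genes were called in either direction. At Leiden resolution 0.5, where the same cells leave the RGL/astrocyte-like class, 14.2% of all genes were called higher and 12.1% lower. Limma on mean log2(CPM + 1) over cells called 63 higher (25.2% of all genes), so the contrast turned on which cells formed the comparison class and on the scale.

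In endothelial-like cells 1 of 77 members was called higher and 0 lower, where 4.62% of 9411 genes were called higher and 21.7% lower. This member was Rpl38, a 60S protein known for its role in the translation of Hox mRNAs. Rpl38 was at 200 to 538 CPM (median 239) in endothelial-like and 42.1 to 78.0 CPM (median 54.9) in RGL/astrocyte-like cells. The groups did not overlap, and the log2 difference was 1.82 (SE 0.59, adjusted p = 0.0334). Thinned cells with Rpl38 made up 96.2% of the endothelial-like, 67.0% of the RGL/astrocyte-like and 48.6% of the mural-like class. In the endothelial-like cells 4 members were higher and 0 lower at p under 0.05 before adjustment, where 5.83% of genes were higher and 31.9% lower. The median member was at 0.36 beside -2.46 for all genes tested (0.83 and -2.07 with library size only, where 9 members and 5.34% of all genes were called higher). Limma called 40 higher (9.28% of all genes) and DESeq2 4 higher and 1 lower (5.33% and 35.3%). Of the fits without 1 mouse, 6 of 8 lost the call of Rpl38, with adjusted p from 0.0119 to 0.101. Without mouse 7, which had 3 endothelial-like cells, 4 members were called higher and 0 lower, and 22.9% of all genes were called in either direction.

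In mural-like cells Rps4l was the 1 member of 77 called higher, and 0 were called lower, where 4.27% of 9312 genes were called higher and 17.1% lower. Rps4l was at 60.5 to 608 CPM (median 164) in mural-like and 11.3 to 82.4 CPM (median 29.5) in RGL/astrocyte-like cells, higher in 8 of 8 mice. The groups overlapped at their edges, and the log2 difference was 2.296 (SE 0.75, adjusted p = 0.0447). It had counts in 32.4% of thinned mural-like and 12.6% of thinned RGL/astrocyte-like cells, while its parent gene Rps4x had a log2 difference of -0.94 (adjusted p = 0.274). Without 1 mouse in turn the call of Rps4l was lost in 6 of 8 fits. Before adjustment 1 member was higher and 1 lower at p under 0.05, beside 5.36% and 26.8% of genes. The median member was at -0.42 beside -1.90 for all genes and at 0.01 with library size only, so the sign of the family in mural-like cells depended on the scaling.

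In neuroblast-like cells, edgeR called 0 of 77 members, although 72 were positive and the median member was at 0.68 beside -2.29 for all 8915 genes tested. The background was 0.505% of genes called higher and 4.83% lower. Before adjustment 4 members were higher and 0 lower at p under 0.05, beside 2.05% and 24.0% of genes. Of all genes tested, 19.5%, 20.5% and 20.8% were positive in the endothelial-like, mural-like and neuroblast-like comparisons. Sums of these classes held 3 to 19, 6 to 14 and 3 to 5 cells per mouse, against 19 to 43 in RGL/astrocyte-like cells. The part of these cell numbers in the medians of all genes was not tested. Rplp0, which anchors the stalk proteins Rplp1 and Rplp2 to the ribosome, was at 767 to 3295 CPM (median 1939) in neuroblast-like and 104 to 468 CPM (median 306) in RGL/astrocyte-like cells of the same 5 mice. The groups did not overlap, and the log2 difference was 1.69 (SE 0.52, adjusted p = 0.0862).

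**Figure D4:**
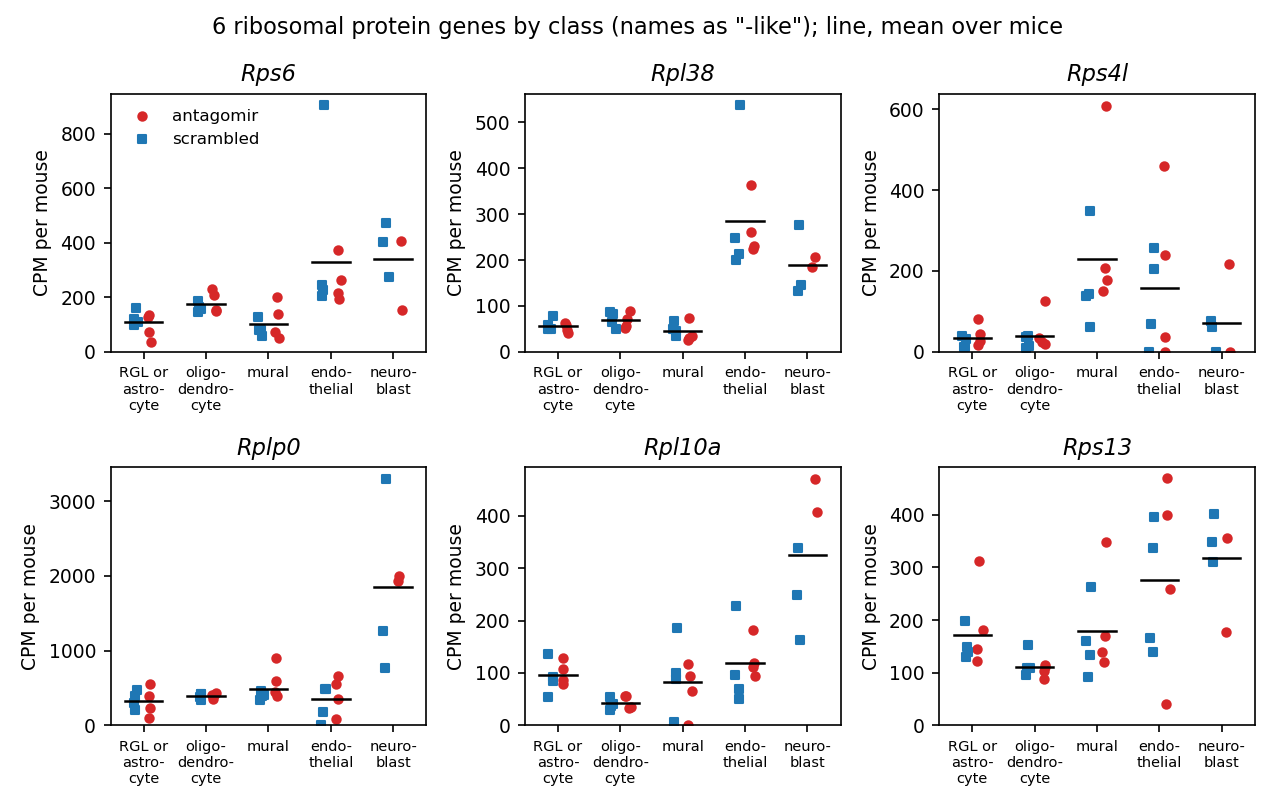
CPM per mouse (y axes, linear from 0) of 6 ribosomal protein genes in 5 classes (x axes), coloured by treatment, with a line at the mean over mice. Rpl38 is highest in endothelial-like cells (200 to 538 CPM), Rps4l in mural-like cells (60.5 to 608 CPM) and Rplp0 in neuroblast-like cells (767 to 3295 CPM), while Rpl10a is lowest in oligodendrocyte-like cells.

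The neuroblast-like calls depended on the method. Library size only gave 6 members called higher (1.02% of all genes) with a median of 1.66 (all genes -1.36). Limma called 68 higher (7.09%), DESeq2 0 (2.08%), and the fit without the mouse as a block 4 (1.07%). Among the lowest members, Rps4l (-1.10) and Rps13 (-0.10) were not called and changed sign under other settings.

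**Figure D5:**
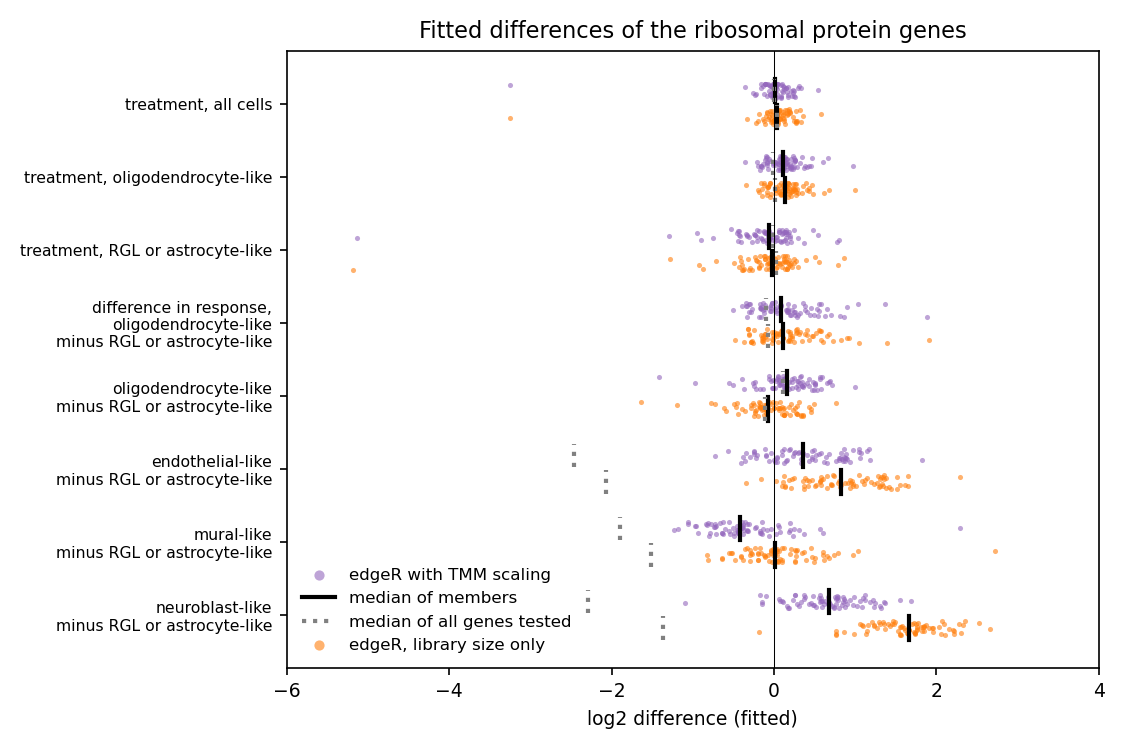
Fitted log2 differences of the ribosomal protein genes (points) in 8 comparisons (rows), from edgeR with TMM scaling and with library size only, with the median of the members (solid line) and of all genes tested (dotted line). In the 4 treatment rows the members lie around 0. In the vascular and neuroblast-like rows, whose sums held fewer cells than those of RGL/astrocyte-like cells, the members lie above the median of all genes. The value of Rpl3l in the difference in response (8.85) is beyond the axis.

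Between treatments the family's share overlapped in all 5 classes. The share of counts over all cells was 1.10%, 1.14%, 1.38% and 1.15% in the antagomir mice and 1.09%, 1.21%, 1.14% and 1.11% in the scrambled mice (1.19% ± 0.128 against 1.14% ± 0.0523, SD, n = 4 each). The groups overlapped, and mouse 6 was highest. In oligodendrocyte-like cells the shares were 1.06% ± 0.112 and 0.961% ± 0.0896, in RGL/astrocyte-like 0.979% ± 0.134 and 0.975% ± 0.121, in endothelial-like 1.99% ± 0.244 and 1.93% ± 0.464 and in mural-like 1.18% ± 0.270 and 1.09% ± 0.0704. Among neuroblast-like cells, 2 antagomir mice had 3.52% and 2.83% and 3 scrambled mice 3.42%, 3.08% and 3.06%. In sums over all cells, a change in the mix of classes and a change within cells cannot be told apart.

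With edgeR, 0 of 79 members were called over all cells, 0 of 78 in oligodendrocyte-like and 0 of 79 in RGL/astrocyte-like cells, and 0.0% of all genes were called in any of the 3. At p under 0.05 before adjustment, 0 members were found over all cells (0.958% of all genes were higher and 0.855% lower), 1 in oligodendrocyte-like cells (0.854% and 1.13%) and 0 in RGL/astrocyte-like cells (0.845% and 0.704%). Over all cells 0 of the 79 members had groups that did not overlap, as did 1.06% of genes upwards and 0.893% downwards. The median members were at 0.01, 0.12 and -0.06, beside 0.00373, -0.01 and -0.00688 for all genes. Positive differences were found for 44 of 79, 58 of 78 and 33 of 79 members, and for 50.4%, 49.0% and 49.6% of all genes. In RGL/astrocyte-like cells the median was 0.24 within pool L5 and -0.31 within pool L6, so its sign was not shared by the pools. DESeq2 called 0 members over all cells (0.362% of genes higher and 0.408% lower), 1 in oligodendrocyte-like (0.305% and 0.438%) and 0 in RGL/astrocyte-like cells (0.37% and 0.323%), and limma called 0 in all 3. The 95% interval reached a median of 0.46 to either side over all cells, 0.54 in oligodendrocyte-like and 0.83 in RGL/astrocyte-like cells, and the interval lay within a 2-fold change in either direction for 74, 67 and 36 members.

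Rpl30, a 60S protein, was the 1 member found before adjustment, in oligodendrocyte-like cells. Its levels were 95.6, 115, 118 and 133 CPM in antagomir mice and 52.5, 79.9, 73.5 and 81.8 CPM in scrambled mice. The groups did not overlap, as was the case for 0.881% of genes in this direction and 1.31% downwards, where no member was found, and the log2 difference was 0.67 (SE 0.22, adjusted p = 1.00 in edgeR). DESeq2 gave Rpl30 an adjusted p of 0.0207. Over all cells Rpl30 was at 101, 114, 125 and 148 CPM after the antagomir and 81.0, 125, 85.5 and 110 CPM in controls, which overlapped.

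In RGL/astrocyte-like cells 2 members did not overlap, where 1.34% of genes did so upwards and 0.933% downwards. One of them, the 40S protein gene Rps28, was at 41.3, 38.3, 42.7 and 25.6 CPM after the antagomir and 63.1, 46.0, 44.0 and 88.8 CPM in controls (log2 difference -0.75, SE 0.52, adjusted p = 1.00 in edgeR). The smallest p upwards belonged to Rpl14 (log2 difference 0.78, adjusted p = 1.00 in edgeR). Rps6 was at 126, 73.2, 137 and 35.4 CPM and at 110, 161, 99.6 and 119 CPM (log2 difference -0.43, SE 0.43), and Rplp0 at 557, 227, 391 and 104 CPM and at 468, 208, 306 and 396 CPM (-0.16, SE 0.45), both overlapping and with the lowest value in the same antagomir mouse, mouse 8.

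The difference in response between oligodendrocyte-like and RGL/astrocyte-like cells was tested as an interaction, and edgeR and DESeq2 both called 0 members. At p under 0.05 before adjustment edgeR found 0, where 0.863% of all genes were higher and 1.44% lower. The median member was at 0.08 and the 95% interval reached a median of 1.08 to either side, so 6 members had an interval within a 2-fold change in either direction. The smallest p belonged to Rps2 (1.03, SE 0.48, adjusted p = 1.00 in edgeR).

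Members were also compared by features of their genes. In RGL/astrocyte-like cells 1 of the 13 members with a pyrimidine run at the start was positive after the antagomir (median -0.19). Of 45 members with a promoter entry and no such run 21 were positive (median -0.05), as were 11 of 21 with no entry (median 0.02). In oligodendrocyte-like cells the numbers were 7 of 13 (median 0.04), 32 of 44 (0.10) and 19 of 21 (0.12). For the 29 members with a snoRNA gene inside and the 50 without, the medians in RGL/astrocyte-like cells were -0.08 and -0.05, and for small and large subunit -0.07 and -0.05. In the difference in response, the medians with and without a snoRNA gene were 0.26 and 0.05. In oligodendrocyte-like against RGL/astrocyte-like cells, members with a snoRNA gene had a median of 0.32 (0.10 with library size only) and those without 0.13 (-0.09). With the C allowed within 5 bases of the start, 28 of 60 members had a run, so the members without a run at the start include some with a run nearby. Genes outside the family with such a run were not compared, and the median of all members in RGL/astrocyte-like cells differed in sign between the pools. These medians are descriptions, with no test.

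Other genes of the pathway were read from lists that, like the members, were chosen with earlier results of these data known. In oligodendrocyte-like against RGL/astrocyte-like cells, 3 of 19 elongation factor and related genes with a terminal oligopyrimidine tract were called higher and 0 lower by edgeR (median 0.35), near the 13.3% of all genes called higher. They were Eef1a1, the factor that brings aminoacyl-tRNA to the ribosome (1.23, adjusted p = 0.000145), Tpt1 (0.97, adjusted p = 0.00251) and Btf3. Fau was called higher too (0.69, adjusted p = 0.0213), as 1 of 3 tested ubiquitin fusion and scaffold genes, while Rack1, a scaffold on the 40S subunit, had -0.30 (adjusted p = 0.531). Of 18 mTORC1 genes and targets 0 were called higher and 5 lower, beside 13.7% of all genes called lower, among them the inhibitors Sesn3 (-3.13, adjusted p = 0.000372) and Sesn1 (-3.20, adjusted p = 0.00117). Ribosome biogenesis factors had 0 of 29 called, and mitochondrial ribosomal proteins 3 higher and 1 lower of 78 tested. In endothelial-like cells 2 of 28 biogenesis factors and 10 of 78 mitochondrial ribosomal proteins were called lower and 0 higher, below the 21.7% of all genes called lower there, with medians of -3.74 and -2.49 beside -2.46 for all genes. In mural-like cells 4 of 28 biogenesis factors and 5 of 78 mitochondrial ribosomal proteins were called lower and 0 higher, where 17.1% of all genes were called lower. In neuroblast-like cells 0 genes of these lists were called, with medians of -0.41 for 28 biogenesis factors, -2.36 for 77 mitochondrial ribosomal proteins and 0.56 for the 19 elongation factor and related genes. The median of all genes tested there was -2.29. After the antagomir 0 genes of these lists were called over all cells, in oligodendrocyte-like or in RGL/astrocyte-like cells.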

How the data were processed

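The deposited values are raw read counts for each gene symbol in each well of Smart-seq2 libraries without molecular identifiers. A second table gives the mouse, treatment, sort day and project label (here the pool) of each well. Seurat 2.3.1, featureCounts 1.5.1 of Subread, STAR 2.5.2 and FastQC appear with build mm10 in the submitters' processing notes. The sources used here do not state the strand setting or the treatment of shared reads. Labels do not link the 4 GEO samples to mice, and each mouse served as 1 replicate. In treatment fits, p-values weigh a difference against the spread between mice. In fits with the mouse as a block, they weigh it against how the class difference varied between mice.

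Members, lists and tests were chosen with earlier results of these data known. Wells with 500 to 6000 detected genes were kept and clustered with scanpy 1.11.5 (2000 variable genes without the members, their pseudogenes and paralogs, 20 principal components, 15 neighbours, Leiden resolution 1). No doublet caller was run. Counts were summed per mouse and class and tested with edgeR 4.0.16 (filterByExpr, TMM, quasi-likelihood, Benjamini-Hochberg). Treatment fits used the mice with at least 10 cells of a class and had no block. DESeq2 1.42.0 and limma 3.58.1 (pseudocount 1) were alternatives, and the code was tested on simulated data. Treatment fits recovered 32 of 61, 27 of 61 and 14 of 58 genes set to differ 8-fold (all, oligodendrocyte-like, RGL/astrocyte-like cells). At 2-fold these were 1 of 64, 1 of 65 and 0 of 62. Class fits recovered 24 of 66 at 8-fold in oligodendrocyte-like and 0 of 60 in endothelial-like cells. The numbers were 4 of 63 in mural-like, 0 of 56 in neuroblast-like cells and 0 of 64 for the difference in response. In the simulated data most genes did not differ, unlike the real endothelial-like fit, where 4.62% of genes were called higher and 21.7% lower. How many differing members the real fits would miss was therefore not measured. A member counts as called at an adjusted p under 0.05. Intervals cover the spread between mice. Lengths came from GENCODE M21.

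Members were named where called, or, where none was, for the 3 smallest p in each direction; the highest, lowest, stalk, paralog and Mdm2-binding members and Rps6, Rpl38, Rps25, Rpl10a, Rps4x and Rpl41 were always eligible. Other members were named after their values were seen, and results of some genes are not reported here. Mice 1 and 2, 3 and 4, 5 and 6, and 7 and 8 shared a sort day and a project label (here the pool) per the deposited table. The correlations of their deviations over 11143 genes were 0.249, 0.009, 0.1 and 0.155.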

Additional observations from a re-analysis of the deposited data

Results flagged for a closer look

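Of 72 groups of 4 to 8 mice checked for a mouse far from the others, 5 had one, and chance gives about 1 in 20 such groups. The share of counts in the family over all cells was 1.38% in mouse 6 (antagomir), where the other 7 mice lay between 1.09% and 1.21%. Rps10 over all cells was at 91.2 CPM in scrambled mouse 1 and between 107 and 110 CPM in the other 3 scrambled mice. Rps13 was at 313 CPM in RGL/astrocyte-like cells of mouse 8, beside 122 to 198 CPM in the other 7 mice. The muscle paralog Rpl3l was at 32.3 CPM in RGL/astrocyte-like cells of scrambled mouse 3 (the other scrambled mice 0 to 2.43 CPM). It was at 0.939 CPM in those of antagomir mouse 4, with no count in the other antagomir mice. Rpl3l had counts in 10 of 716 cells, so both values rest on a few cells.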

How the results depend on the processing

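Between treatments, 0 members were called over all cells, in oligodendrocyte-like and in RGL/astrocyte-like cells and in their difference under the alternatives run, with 1 exception, DESeq2 in oligodendrocyte-like cells (1 member, Rpl30). With the replicate block of sort day and pool the calls stayed at 0 in the 3 treatment comparisons and the medians were 0.006, 0.1 and -0.036. Of members that were not called, Rps13 in oligodendrocyte-like cells turned to 0.03 within sort day 2 and Rpl7a in RGL/astrocyte-like cells to 0.11 within pool L5.

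The counts of members called between classes moved with most choices, and the cause was not tested. The share of all genes called in either direction stands in brackets. Oligodendrocyte-like against RGL/astrocyte-like cells gave 6 calls (27.1%), 11 with DESeq2 (34.6%), 2 with library size only (26.9%), 3 without the filter on low counts (10.7%), 63 with limma (43.9%), and 24 both at Leiden resolution 0.5 and without the Nes-rich cluster (26.3%). Endothelial-like cells gave 1 call (26.3%), 5 with DESeq2 (40.6%), 9 with library size only (25.2%), 0 without the filter (13.7%), 40 with limma (39.9%), 6 with no replicate block (16.9%), 3 without the cluster of few detected genes (24.8%), and 5 both at Leiden resolution 0.5 and without the Nes-rich cluster (22.4%). Mural-like cells gave 1 call (21.3%), 3 with DESeq2 (38.1%), 0 without the filter (2620 of 26147 genes) and 8 with limma (33.4%). Neuroblast-like cells gave 0 calls (5.34%), 6 with library size only (3.52%), 68 with limma (14.1%), 4 with no replicate block (11.7%) and 22 at Leiden resolution 0.5 (5.59%). Within pool L5 and within pool L6 the oligodendrocyte-like, endothelial-like and mural-like comparisons gave 0 calls each, with 4 mice in each fit and 4.7% to 11.2% of all genes called. Leaving out each mouse in turn, with at least 18.3% of all genes called, gave 2 to 6 calls in oligodendrocyte-like (2 without mouse 5, 3 without mouse 1, 2 or 6), 0 to 4 in endothelial-like (0 without mouse 1, 3, 4, 5, 6 or 8 and 4 without mouse 7) and 0 to 1 in mural-like cells (0 without mouse 2, 3, 4, 5, 6 or 8).

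In neuroblast-like cells Rps4l and Rps13, which were not called, changed sign. Rps4l was at 0.13 with limma, 0.30 with no replicate block, 2.82 at Leiden resolution 0.5 and 0.50 without the Nes-rich cluster, and between -3.54 and 0.20 when each mouse was left out (0.20 without mouse 1, 0.19 without mouse 8). Rps13 was at 0.86, 3.27, 0.45, 0.95 and 0.38 with library size only, with limma, within pool L5, at Leiden resolution 0.5 and without the Nes-rich cluster, at 0.12 without the cluster of few detected genes, and between -0.34 and 0.32 when each mouse was left out (0.32 without mouse 8). The share of counts in the family at Leiden resolution 0.5 was 0.667% in RGL/astrocyte-like and 2.55% in neuroblast-like cells, and 46.7% of the 60 members with a promoter entry had a pyrimidine run within 5 bases of the start. The fits that left out a cluster, the ranks of members by median or without mouse 7, the shares under other clusterings and the alternatives for the difference in response were chosen after seeing the data. In the vascular and neuroblast-like comparisons the 95% interval reached a median of 1.31, 1.37 and 1.69 to either side in endothelial-like, mural-like and neuroblast-like cells.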

Other observations

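Fibroblast-like and oligodendrocyte precursor-like cells entered no comparison. The 12 fibroblast-like cells had a median of 1.33% of counts in the family (0.597% to 2.00%) and a median of 51 members detected after thinning. The 5 precursor-like cells had 0.890% (0.712% to 0.948%) and 63 members, near the oligodendrocyte-like values of 0.986% and 59. In the precursor-like cells of the 1 mouse with at least 3 of them, small-subunit genes held 33.3% of member counts, below the range of 39.8% to 42.9% over the 8 mice in oligodendrocyte-like cells. This value rests on 4 cells of 1 mouse, and the difference was not tested.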
